A study of Mus musculus with 4 samples.

Results

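The antigen presentation genes examined here were those that put peptides on MHC class I and class II molecules, in follicular helper CD4+ T (TFH) cells with and without Rictor, the subunit that defines mTOR complex 2 (mTORC2). A gene was a member if a probe set of the array was annotated to it alone and its symbol began with H2- or was B2m, Tap1, Tap2, Tapbp, Tapbpl, Erap1, Cd74, Ciita, Nlrc5, Cd1d1, Mr1, Calr, Canx or Pdia3, and 37 of the 18193 genes measured met this rule. The rule picked genes by name and by no measured value, but it was chosen with earlier results of these data known.

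The 4 Affymetrix mouse arrays held RNA of TFH cells sorted from spleen at day 8 after infection with the Armstrong strain of lymphocytic choriomeningitis virus (LCMV). Of these, 2 came from Rictor fl/fl mice carrying a Cd4-Cre transgene (Rictor-/- below, labelled Rictor-null) and 2 from Rictor fl/fl littermates without Cre (WT below), so that both groups carried the floxed allele and were infected. Each sample pooled several young adult mice of either sex, and the gate used for this sort was not stated in the sources read, although the study elsewhere takes TFH cells as activated (CD44hi) CXCR5+ CD4+ T cells. Cd4-Cre acts in the thymus and removes the floxed exon in CD8+ T cells too, so the TFH cells of the Rictor-/- mice had developed beside other T cells without Rictor. The comparison asked which of the antigen presentation transcripts differed between Rictor-/- and WT TFH cells.

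MHC class I molecules pair a heavy chain with beta-2 microglobulin, are loaded with peptide in the endoplasmic reticulum, and are carried by nearly every nucleated cell, T cells included. Class II molecules are made mainly by B cells, dendritic cells and macrophages, and mouse T cells make little of them. The related coactivators, NLRC5 for class I and CIITA for class II, act at promoters that share X and Y box elements.

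Each intensity below is that of the brightest probe set annotated to the gene alone, on the linear scale of the deposited table. Differences are log2 fold changes of intensity + 16, Rictor-/- minus WT, and a gene is said to be higher or lower only if its adjusted p from limma (Benjamini-Hochberg over 18193 genes) was under 0.05. Precision is limited by having 2 arrays per group. The p-values rest on the spread between pools, which limma moderates for each gene toward that of other genes of like signal. A probe set's intensity depends on its probes, so levels are compared between arrays and not between genes. The median intensity over all probe sets was 20.2, and a probe set with a mean below it is called dim. In sorted bulk RNA, fewer cells of a type and less RNA per cell cannot be told apart.

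Median intensities on the 4 arrays lay between 20.0 and 20.4, and the arrays correlated at 0.998 within each group and at 0.993 to 0.994 between groups. By its brightest probe set Rictor read 267 and 279 in Rictor-/- cells against 334 and 303 in WT cells (log2 fold change -0.21, SE 0.06, limma adjusted p = 0.0366), while its other 4 probe sets lay between -0.03 and 0.11. The sources read do not place those probes relative to the deleted exon, so a probe set outside it checks nothing. In a separate measurement the study reported that Rictor mRNA could not be detected in TFH cells sorted from Rictor-/- mice. All 12 measured T cell and TFH markers were brighter than the median, led by Cd3d, Icos and Cd3g, none of which passed the test, while 8 of the 12 were lower in Rictor-/- cells, beside 11.4% of all genes that were not dim, among them Cxcr5, Bcl6 and Il21.

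Promoter letters were taken from RefSeq (GRCm38.p6, 250 bases before to 50 after the gene start), which held windows for 24 of the 37 members. The windows of 4 members are shown as examples of chains that moved in each direction: H2-Aa and H2-Eb1, class II chains that were higher in Rictor-/- cells, and H2-D1 and H2-Q2, class I heavy chains that were lower. Capitals mark the letters of the searched motifs on either strand, CTGATTGG for the Y box core, AGNNACNGA for the X box core and GGGGATTCC for kappa B, with the gene's own strand read 5′ to 3′. The windows are chr17:34287774-34288073 (minus strand) for H2-Aa, chr17:34305617-34305916 (plus) for H2-Eb1, chr17:35262844-35263143 (plus) for H2-D1 and chr17:35342057-35342356 (plus) for H2-Q2.
H2-Aa: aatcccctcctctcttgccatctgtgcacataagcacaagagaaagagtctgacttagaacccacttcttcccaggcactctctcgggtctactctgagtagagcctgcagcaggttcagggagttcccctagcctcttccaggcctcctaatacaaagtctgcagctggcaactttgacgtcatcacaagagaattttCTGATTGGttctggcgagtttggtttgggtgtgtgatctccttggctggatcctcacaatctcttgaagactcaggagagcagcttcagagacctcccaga
H2-Eb1: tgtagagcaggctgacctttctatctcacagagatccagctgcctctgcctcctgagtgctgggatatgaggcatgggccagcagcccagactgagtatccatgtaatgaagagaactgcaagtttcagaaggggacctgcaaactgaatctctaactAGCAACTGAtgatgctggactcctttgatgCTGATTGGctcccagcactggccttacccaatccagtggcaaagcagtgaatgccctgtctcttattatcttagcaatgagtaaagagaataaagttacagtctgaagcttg
H2-D1: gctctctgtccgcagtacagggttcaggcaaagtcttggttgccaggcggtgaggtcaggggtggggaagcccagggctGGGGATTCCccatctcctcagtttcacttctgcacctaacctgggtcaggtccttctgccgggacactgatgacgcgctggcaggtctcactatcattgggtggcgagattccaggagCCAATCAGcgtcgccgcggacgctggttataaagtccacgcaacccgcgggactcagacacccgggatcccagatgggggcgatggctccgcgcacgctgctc
H2-Q2: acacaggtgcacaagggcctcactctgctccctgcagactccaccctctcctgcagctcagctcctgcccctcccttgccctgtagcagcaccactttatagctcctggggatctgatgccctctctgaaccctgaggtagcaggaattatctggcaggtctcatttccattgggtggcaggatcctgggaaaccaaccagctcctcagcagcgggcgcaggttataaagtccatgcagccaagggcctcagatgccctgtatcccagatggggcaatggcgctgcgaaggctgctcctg

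The Y box core began 51 bases before the start of H2-Aa and 62 before that of H2-Eb1, where an X box core lay upstream at 92. In H2-D1 the Y box core, on the opposite strand, began 53 bases before the start and a kappa B sequence 171 before it. H2-Q2 held none of the searched letters in this window. The Y box core was in the windows of 10 of the 24 members against 4.1% of all 32851 windows, and those members both rose and fell or did not pass (H2-Aa and H2-Eb1 higher, H2-D1 lower, H2-K1, Tap1, Canx, H2-Eb2, H2-Oa, H2-M9 and H2-M10.1 not passing). The X box core was in 8 members' windows and 17.7% of all, and kappa B in those of H2-D1 and H2-K1 and 0.25% of all. In B2m, Tapbp and H2-Ob the only X box core began after the gene start. A member was counted if any of its windows held the letters, while the shares over all are per window. An interferon-stimulated response element core (GAAANNGAA) was in the windows of B2m and Erap1, against 8.56% of all, and a gamma-activated sequence (TTCNNNGAA) in those of H2-DMb2 and H2-M3, against 8.3% of all. These matches describe letters and are not evidence of binding.

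Of the 37 members, 7 were higher in Rictor-/- TFH cells, 8 were lower and 22 did not pass the test. Over all genes 12.5% were higher and 7.19% lower, and the members' median log2 fold change of -0.01 lay beside 0.01 over all genes. Of the 31 members that were not dim, 6 were higher and 8 lower, against 20.1% higher and 11.4% lower of the 10696 such genes. H2-Q2, among the 8 lower, was above the median intensity only in WT cells. The 2 groups of arrays did not overlap in 24 of the 37 members, beside 55.5% of all genes and 67.0% of the genes that were not dim. On the class I side 3 of 24 genes were higher and 6 lower (median -0.03), and on the class II side 4 of 10 were higher and 1 lower (median 0.14). The difference between the sides was not tested.

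**Figure D1:**
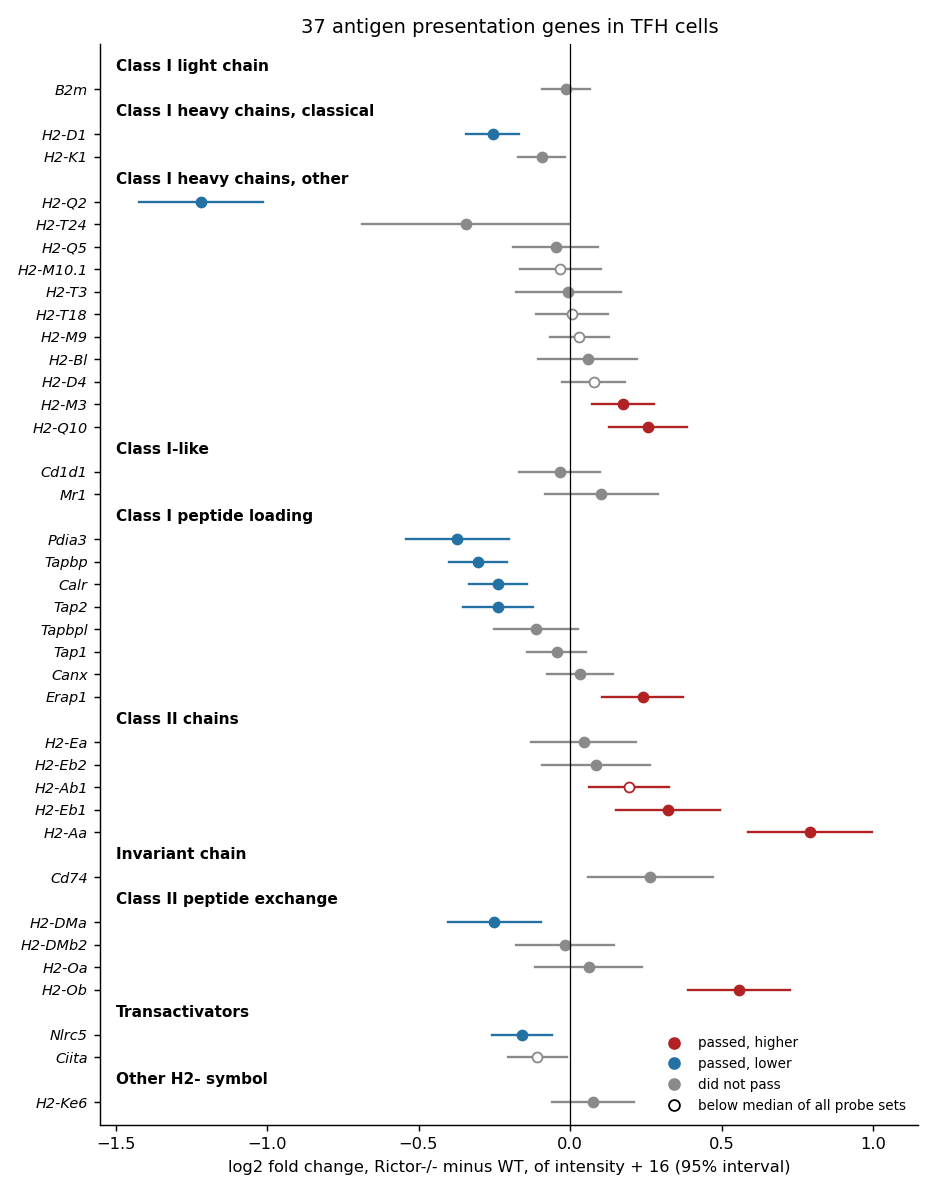
Log2 fold change (Rictor-/- minus WT, of intensity + 16) of each of the 37 genes, grouped by role, with the 95% interval from limma. Red and blue mark genes that passed the test, gray those that did not, and hollow points are dim genes; the peptide loading genes sit mostly to the left of 0 and the class II chains to the right.

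The class I light chain was even between the genotypes. B2m, beta-2 microglobulin, read 10245 and 9981 in Rictor-/- cells and 10396 and 10006 in WT cells, with the groups overlapping (log2 fold change -0.01, 95% interval -0.09 to 0.07). Its direction turned when Rictor-/- replicate 2 or WT replicate 1 was left out (0.0065 and 0.015). Of the classical heavy chains, which present peptides to CD8+ T cells, H2-D1 was lower, at 7743 and 8281 in Rictor-/- cells and 9649 and 9465 in WT cells. Both Rictor-/- arrays lay below both WT arrays, a linear ratio of 0.838 and a log2 fold change of -0.25 (SE 0.04, limma adjusted p = 6.11e-04; without WT replicate 1 it was 0.0518). H2-K1 read 10958 and 11383 against 11986 and 11845, also without overlap, but with a log2 fold change of -0.09 it did not pass (limma adjusted p = 0.0909), although it did without Rictor-/- replicate 2 (0.0462).

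Class I heavy chain genes are close to each other in sequence. The representative probe sets of H2-D1, H2-K1, H2-T18, H2-T3 and H2-Aa are of the array maker's x_at class, whose probes can also match other transcripts. H2-D1 had 9 probe sets, 6 of them not dim, which gave log2 fold changes between -0.45 and -0.02, and 4 of these were lower by limma over all 45037 probe sets. The mean of all 9 missed the threshold (adjusted p = 0.0518). For H2-K1 the 4 probe sets lay between -0.29 and -0.08 and 1 was lower, and their mean passed (-0.17, adjusted p = 0.0297). With dim genes left out before the fit, H2-K1 also passed by its brightest probe set (limma adjusted p = 0.0273). A probe set annotated to H2-K1 or H2-D1 together fell with a log2 fold change of -0.18 (SE 0.05, limma adjusted p = 0.0275), so the split of signal between these 2 genes is uncertain.

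Among the other class I heavy chains, H2-Q2 had the widest gap of any member. This nonclassical gene of the Q region read 11.7 and 10.7 in Rictor-/- cells, which is dim, and 54.1 and 41.1 in WT cells. The log2 fold change was -1.22 (SE 0.09, limma adjusted p = 3.97e-06), and with the median of all probe sets put in place of the dim values WT cells were at least 2.36-fold higher. H2-Q2 had 1 probe set of its own, and 1 more that it shares with H2-D1 and a predicted gene was dim and did not pass (log2 fold change 0.07).

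H2-M3 and H2-Q10 were higher in Rictor-/- cells. H2-M3, which presents formylated peptides of bacteria and mitochondria, read 1051 and 1054 against 953 and 909, and both Rictor-/- arrays were above both WT arrays (log2 fold change 0.17, SE 0.05, limma adjusted p = 0.0193). H2-Q10, a class I chain best known as a secreted liver protein, read 269 and 274 against 223 and 226, again without overlap (0.26, SE 0.06, adjusted p = 0.00782). Neither call held without WT replicate 1 (limma adjusted p = 0.0813 for H2-M3 and 0.0959 for H2-Q10) or WT replicate 2 (0.197 and 0.0857), and that of H2-M3 was also at the threshold without Rictor-/- replicate 2 (0.05).

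The other 8 nonclassical heavy chains did not pass. In H2-T24 the arrays read 44.8 and 53.0 in Rictor-/- cells and 86.5 and 49.8 in WT cells, and its log2 fold change of -0.34 came with 1 WT array high and the other inside the Rictor-/- range. The remaining 7 (H2-Bl, H2-D4, H2-M10.1, H2-M9, H2-Q5, H2-T18 and H2-T3) lay between -0.05 and 0.08, and 4 of them were dim. RefSeq lists H2-Bl, H2-D4 and H2-Q5, and H2-Ea of class II, as pseudogenes. Of the class I-like molecules, Cd1d1, which shows lipids to NKT cells, had a log2 fold change of -0.03 and Mr1, which shows vitamin B metabolites to MAIT cells, of 0.10, and neither passed.

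Several class I transcripts were read only by probe sets annotated to more than 1 gene, which name none of them. In all, 15 probe sets were annotated to several genes with an H2- or other listed symbol among them. Some named members, class II genes and H2-K1 or H2-D1 among them, and others only genes outside the members, such as H2-Q9 and H2-T23. Of the 15, 4 were lower and 2 higher, one of the latter for H2-Ob, against 4.63% lower and 6.38% higher over all 45037 probe sets. The probe set shared by H2-Q9 and H2-Q7 fell with a log2 fold change of -0.14, and so did that shared by H2-Q6 and H2-Q8, both from the Qa-2 genes (SE 0.03 and 0.04, limma adjusted p = 0.0149 and 0.0377). Those shared by H2-T23, the source of Qa-1, and H2-T-ps went opposite ways. One read 3428 and 3443 in Rictor-/- cells against 4187 and 4203 in WT cells (-0.29), and the other 220 and 183 against 139 and 161 (0.39), and both passed. Which of these 2 follows the Qa-1 transcript is not known from these files. Among the 76 probe sets annotated to 1 member alone, 52 were not dim, and 11 of the 76 were lower and 6 higher.

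**Figure D2:**
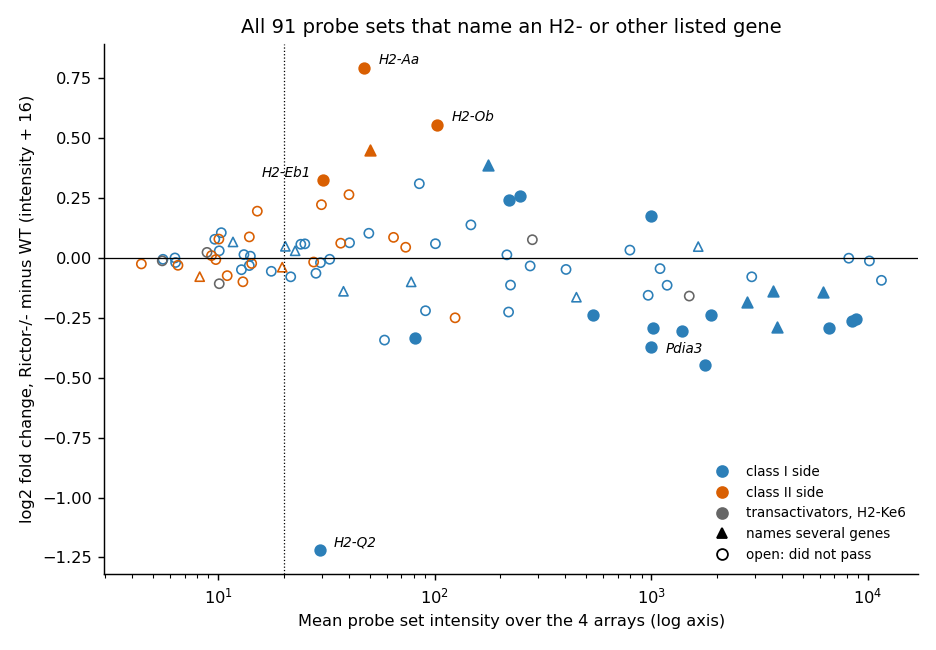
Mean intensity over the 4 arrays (log axis) against log2 fold change (Rictor-/- minus WT) for 91 probe sets, with the median of all probe sets as a dotted line. Circles are annotated to a member alone and triangles to several genes with an H2- or other listed symbol among them. Filled points passed limma over all 45037 probe sets, so that H2-DMa, H2-Ab1 and Nlrc5 are open here; the bright class I probe sets that passed lay mostly below 0, and H2-Aa, H2-Ob and H2-Eb1 above it.

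Among the roles, which held from 1 to 11 genes, peptide loading had the most genes lower. Of 8 genes, all brighter than the median, 4 were lower, 1 was higher and 3 did not pass, with a median of -0.17. Of all genes that were not dim, 11.4% were lower and 20.1% higher. Tapbp, tapasin, which bridges the peptide transporter to class I heavy chains, read 1236 and 1237 in Rictor-/- cells and 1554 and 1505 in WT cells, with a gap between the groups several times their spread (log2 fold change -0.30, SE 0.04, limma adjusted p = 3.26e-04). Its second probe set gave -0.33 and also passed. Tapbp was lower in all 4 fits with 1 array left out (adjusted p from 8.96e-04 to 0.036).

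Pdia3, the disulfide isomerase ERp57 of the loading complex, read 778 and 957 against 1076 and 1169. The Rictor-/- arrays differed from each other but stayed below both WT arrays (-0.37, SE 0.08, limma adjusted p = 0.0045), and a second, dimmer probe set gave 0.06 and did not pass. Calr, the chaperone calreticulin, read 1713 and 1731 against 2087 and 1979 (-0.24, SE 0.04, adjusted p = 0.00191), and its other 2 probe sets gave -0.16 and -0.11 without passing. Tap2, which with TAP1 forms the transporter of peptides into the endoplasmic reticulum, read 487 and 493 against 598 and 563 (-0.24, SE 0.05, adjusted p = 0.00681). In none of these did the groups overlap, which was also so for 67.0% of all genes that were not dim. Without WT replicate 1 the limma adjusted p was 0.0867 for Pdia3, 0.0735 for Calr and 0.124 for Tap2, and without WT replicate 2 it was 0.183, 0.0346 and 0.0556. The mean of both Pdia3 probe sets gave -0.16 (adjusted p = 0.136).

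Tap1, the partner of TAP2, read 1076 and 1081 against 1108 and 1118. The groups did not overlap, but the log2 fold change of -0.04 (95% interval -0.14 to 0.05) did not pass. Tapbpl, the tapasin-like editor TAPBPR, and Canx, the chaperone calnexin, gave -0.11 and 0.03 and did not pass either.

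Erap1, the aminopeptidase that trims peptides before loading, was the exception, at 240 and 237 in Rictor-/- cells and 195 and 204 in WT cells. It was higher on both Rictor-/- arrays (0.24, SE 0.06, limma adjusted p = 0.0148). A second probe set gave 0.06, the mean of both did not pass (0.15, adjusted p = 0.0946), and the call was lost without Rictor-/- replicate 1 (0.0584), WT replicate 1 (0.14) or WT replicate 2 (0.0877).

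**Figure D3:**
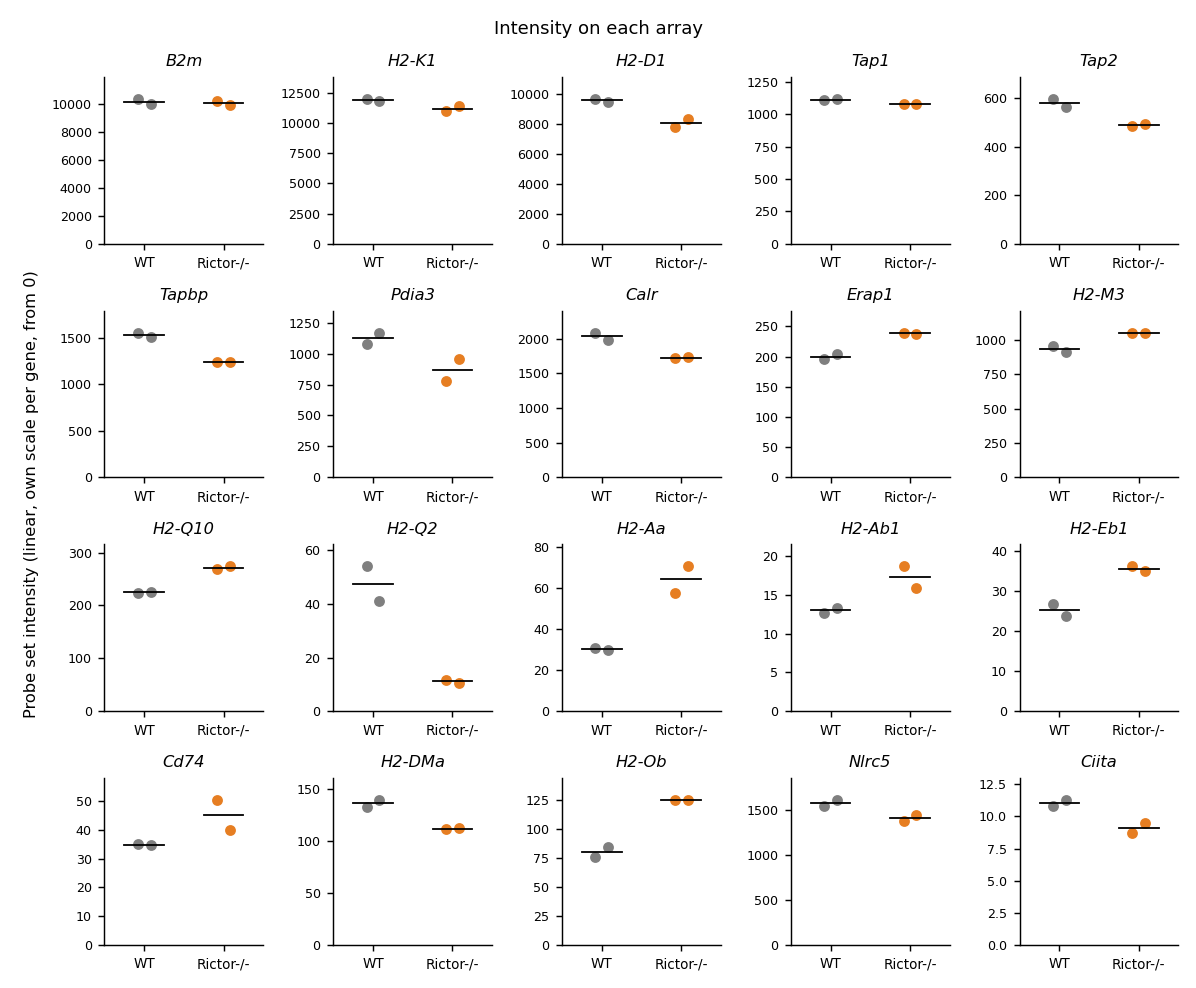
Intensity of the representative probe set on each of the 2 WT (gray) and 2 Rictor-/- (orange) arrays for 20 genes, each on its own linear axis from 0, with the group mean as a line. Tapbp, H2-D1 and H2-Q2 are lower and H2-Aa and H2-Ob higher on both Rictor-/- arrays, while B2m overlaps between the groups.

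On the class II side, 4 of 10 genes were higher in Rictor-/- cells, H2-Ab1 among them being dim, and 1 was lower. Over all genes 12.5% were higher and 7.19% lower. H2-Aa, the alpha chain of I-A, read 57.9 and 70.7 in Rictor-/- cells and 30.6 and 29.8 in WT cells. Both Rictor-/- arrays were well above the WT arrays, at a linear ratio of 2.13 and a log2 fold change of 0.79 (SE 0.09, limma adjusted p = 7.93e-05). Of its 4 probe sets, 2 were dim, and the other bright one gave 0.22 without passing (adjusted p over all probe sets 0.12), so that the mean of all 4 was 0.27 (adjusted p = 0.014).

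H2-Ab1, the beta chain that pairs with H2-Aa, was dim on every array, at 18.7 and 15.8 against 12.7 and 13.3. It passed (0.20, SE 0.06, limma adjusted p = 0.04), but the call was lost without Rictor-/- replicate 1 (0.13, adjusted p = 0.314), WT replicate 1 (0.198) or WT replicate 2 (0.153). H2-Eb1, the beta chain of I-E, read 36.3 and 35.1 against 26.8 and 23.8, with no overlap (0.32, SE 0.08, adjusted p = 0.0112). Without Rictor-/- replicate 1, WT replicate 1 or WT replicate 2 its limma adjusted p was 0.0686, 0.0518 and 0.116. H2-Ea and H2-Eb2 gave 0.04 and 0.09 and did not pass. H2-Ea, listed by RefSeq as a pseudogene, read 75.2 and 74.1 in Rictor-/- cells against 71.3 and 72.5 in WT cells. A reading that is not dim therefore does not by itself show a functional class II transcript.

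Cd74, the invariant chain that escorts class II molecules to the endosome, read 50.5 and 40.1 against 35.0 and 34.7. Both Rictor-/- arrays were above the WT arrays but apart from each other, and the log2 fold change of 0.26 did not pass (SE 0.09, limma adjusted p = 0.0727). It depended on Rictor-/- replicate 1, giving 0.14 without it (adjusted p = 0.507) and 0.39 without replicate 2 (0.0244).

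The peptide exchange factors went separate ways. H2-Ob, a chain of the DM inhibitor H2-O that is typical of B cells, read 125 on both Rictor-/- arrays and 76.1 and 84.2 in WT cells (0.56, SE 0.08, limma adjusted p = 2.52e-04). A probe set shared by H2-Ob and a predicted gene also rose (0.45, adjusted p = 0.00579). H2-Ob was higher in all 4 fits with 1 array left out (adjusted p from 0.0015 to 0.0264). H2-Oa, its partner, gave 0.06 and did not pass.

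H2-DMa, a chain of the exchange factor itself, was lower, at 111 and 112 in Rictor-/- cells against 133 and 140 in WT cells (-0.25, SE 0.07, limma adjusted p = 0.0254). Its call was lost in each of the 4 fits with 1 array left out (adjusted p from 0.0693 to 0.183) and with adjustment over all probe sets (0.0519). H2-DMb2 gave -0.02 and did not pass, and 2 further probe sets annotated to H2-DMb1 or H2-DMb2 were dim.

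Class II transcripts in a T cell sort can come from other cells, so their markers were read on the same arrays. The counts of markers stand beside 12.5% higher and 7.19% lower over all genes, and 20.1% and 11.4% over genes that were not dim. Of 17 B cell markers measured, 13 were dim, among them Ms4a1 (CD20), Cd79a, Ebf1 and Cr2. Cd79b rose (33.5 and 29.8 against 20.0 and 20.3, log2 fold change 0.40) and so did Pax5, which was dim. Of the 3 brightest, Ighm did not pass (2750 and 2864 against 2782 and 2754), and Cd22 (-0.82) and Fcrl1 (-0.42) were lower. The summed intensity of the list was 3429 and 3538 in Rictor-/- cells and 3807 and 3746 in WT cells. That sum was set by few genes, as Cd22 alone read 393 and 392 against 704 and 703.

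Dendritic cell markers gave 1 of 12 higher and 7 dim, the dim ones including Xcr1, Siglech and Cd209a. Itgax (CD11c) rose from 54.4 and 45.6 in WT cells to 145 and 142 in Rictor-/- cells (1.28), while Ccr7 and Zbtb46, the others of the 3 brightest, did not pass. Of 20 myeloid markers, 5 were higher, none was lower and 8 were dim, the last including Cd14, C1qa, C1qb, C1qc and Adgre1. All 5 were among the 12 that were not dim. Itgam, 1 of the 5, was above the median only in Rictor-/- cells (30.1 and 32.4 against 13.6 and 14.9 in WT cells). Fcgr3 rose by 1.26 on the log2 scale and Lyz2 by 0.77, and Cd68, the brightest, did not pass. The summed intensities were 634 and 653 against 518 and 502 for dendritic cell markers and 784 and 705 against 570 and 557 for myeloid markers, higher on both Rictor-/- arrays in each. Itgax and Ccr7 (318 and 345 against 296 and 289) made up most of the first difference. Ccr7 is also a receptor of helper T cells, so its signal in this sort cannot be assigned to dendritic cells. Fcgr3 (108 and 81.4 against 30.4 and 29.5) and Lyz2 (113 and 102 against 58.1 and 54.7) made up most of the second. Such sums give more weight to genes with brighter probe sets. Among 7 plasma cell markers, Jchain (1.49) and Mzb1 (0.88) were higher and Xbp1 was lower (-0.19), Irf4 did not pass, and 2 were dim (summed intensity 1558 and 1629 against 1425 and 1373). The part of such cells in the class II values was not tested.

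**Figure D4:**
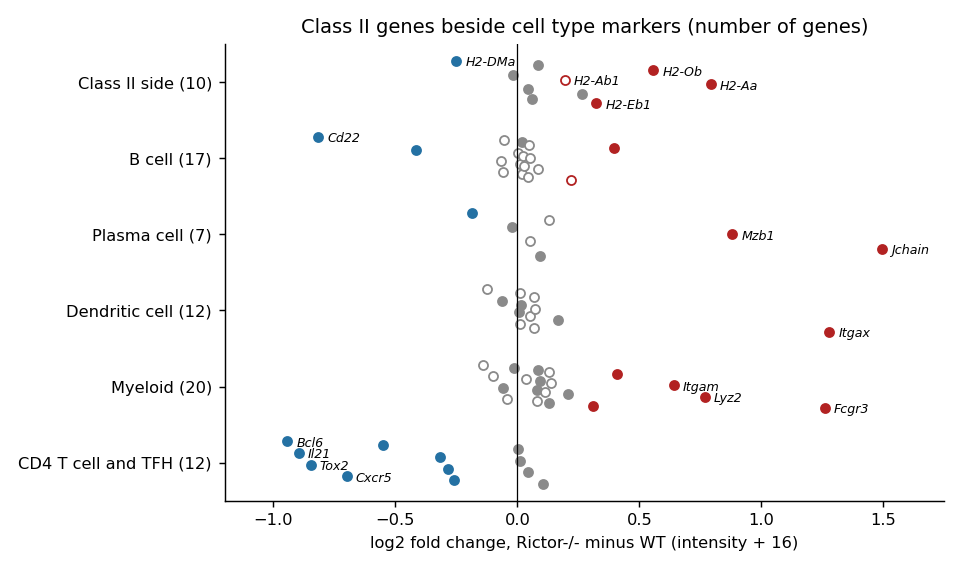
Log2 fold change (Rictor-/- minus WT) of the 10 class II genes beside 5 lists of cell type markers, 1 point a gene, spread vertically for legibility. Red and blue passed limma over 18193 genes, gray did not, and hollow points are dim. Most B cell markers are hollow and near 0, with Cd22 to the left. Jchain, Mzb1, Itgax, Fcgr3, Lyz2 and Itgam lie to the right, as do H2-Aa and H2-Ob. Most dendritic cell and myeloid markers did not pass.

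Of the coactivators, Nlrc5 was lower, at 1380 and 1444 in Rictor-/- cells against 1546 and 1611 in WT cells (-0.16, SE 0.05, limma adjusted p = 0.0273). The groups did not overlap, but the call was lost without Rictor-/- replicate 1 (0.134), WT replicate 1 (0.109) or WT replicate 2 (0.243) and with eBayes without a trend (0.0857). Ciita was dim on every array (8.73 and 9.52 against 10.8 and 11.3) and did not pass (-0.11, limma adjusted p = 0.124). The symbol H2-Ke6 met the naming rule but belongs to Hsd17b8, a fatty acid synthesis enzyme encoded in the MHC, and it did not pass (0.08).

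Around these genes, 42 others of antigen processing were measured, of which 7 were higher, 5 lower and 30 did not pass (median -0.04). Of these, 38 were not dim, with 7 higher and 4 lower, beside 20.1% higher and 11.4% lower of all genes that were not dim. Of 6 genes of interferon control, 1 was higher and 3 were lower. Ifngr1, the ligand-binding chain of the interferon gamma receptor, read 423 and 463 in Rictor-/- cells and 269 and 280 in WT cells (0.66, SE 0.06, limma adjusted p = 1.49e-05). Ifngr2, the other chain of that receptor, was dim and lower, at 11.7 and 11.5 against 16.6 and 15.0 (-0.20, limma adjusted p = 0.0182). Irf8 fell, at 87.8 and 78.6 against 124 and 113 (-0.44), and Irf2 was also lower (-0.29). Irf1, an activator of class I genes, gave -0.08 and did not pass.

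In the promoter complex that docks on X and Y boxes, the NF-Y chains went opposite ways. Nfya read 80.6 and 94.3 against 126 and 123 (-0.45, SE 0.08, limma adjusted p = 0.00195) and Nfyb 310 and 291 against 240 and 247 (0.29, SE 0.06, adjusted p = 0.00465). Nfyc, Rfx5, Rfxap, Rfxank and Creb1 did not pass. Cd86, a ligand of CD28 carried by antigen-presenting cells, read 64.5 and 57.0 against 36.4 and 36.9 (0.54, adjusted p = 6.92e-04), while Cd80 and Cd40 did not pass. Cd9, a tetraspanin found with class II molecules, was higher (0.26), and so was Cd83, which holds class II at the surface (0.22). The immunoproteasome subunits Psmb8, Psmb9 and Psmb10 lay between -0.10 and 0 and did not pass. Psma7, another proteasome subunit, was higher (0.23, limma adjusted p = 0.00601). So was Sec61b, listed with other processing and folding genes (0.19, limma adjusted p = 0.00469). Of the lysosomal proteases, Ctsb was lower (-0.29, adjusted p = 5.34e-04), and Ctss, the protease that frees class II from the invariant chain, was even (-0.04) and did not pass.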

How the data were processed

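TFH cells were sorted from spleens of infected Rictor-/- and WT mice, and RNA of 2 pools per genotype was hybridised to Affymetrix mouse arrays. The values deposited by the authors are probe set intensities on a linear scale. MAS5 and RMA are named in the submitters' processing notes, with neither role nor version. The array medians were already level, and the values were used as deposited. Of 45037 probe sets, 34945 had 1 gene symbol in the platform annotation, 932 had several and 9160 had none there; only the first kind named a gene. Entrez numbers of 34741 matched RefSeq and changed 0 symbols.

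A gene was represented by its brightest single-symbol probe set (mean over all 4 arrays). Groups came from the sample labels. Values were taken as log2(intensity + 16), on which the fold change of a dim gene is understated, and the genotypes were tested with limma 3.58.1, run in R 4.3.3 (lmFit, eBayes with a trend in mean signal, Benjamini-Hochberg over 18193 genes, threshold 0.05). The steps were tested on simulated data. The members and gene lists were chosen with earlier results of these data known.

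Genes with values on every array were the members that passed above the median intensity and 13 fixed members. Of the other processing genes up to 8 of those that passed with the widest fold changes, and of each marker list the 3 brightest, were taken by rule. H2-T24, the other members and markers, Cd83, Psma7, Sec61b, Ifngr2, Cd80, Cd40, Irf1, Ctss, the immunoproteasome and other promoter factors were added after their values were seen. Alternatives were to centre arrays on their medians, to quantile normalize them, to drop dim probe sets, to average a gene's probe sets, to test all probe sets together, to omit the trend, to block on the replicate number, to use a pseudocount of 1, to run the methods' one-tailed t-test and to omit each array in turn.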

Additional observations from a re-analysis of the deposited data

How the results depend on the processing

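With 7 members higher and 8 lower as reported, median centring, quantile normalization, a pseudocount of 1 and the replicate block each gave 7 higher and 8 lower again. Leaving out dim probe sets gave 7 and 9, all probe sets together 6 and 6, no trend 5 and 7, and averaging a gene's probe sets 5 and 5. With 1 array left out, 2 to 7 members were higher and 2 to 8 lower, fewest of both without WT replicate 1 (2 and 2); the lone array was assumed to vary like the other group. The methods' t-test gave 8 higher and 10 lower unadjusted and 0 and 0 after Benjamini-Hochberg, where it called 3 and 3 of all genes. H2-Q2, H2-Aa, H2-Ob and Tapbp kept their calls in every setting but that one. B2m, at -0.040 to 0.015 with 1 array left out, turned direction without Rictor-/- replicate 2 (0.0065) or WT replicate 1 (0.015), and none of the other 19 members run through every setting did; the remaining 17 members were not. H2-Ab1 and Ciita gave no value with dim probe sets left out. Of the other processing genes (7 higher, 5 lower), averaged probe sets gave 2 lower, the t-test after adjustment 0 and 0, and leaving out 1 array 2 to 7 higher and 1 to 4 lower. For B cell, dendritic cell and myeloid markers (8 higher, 2 lower), the t-test gave 6 lower unadjusted and 0 higher and 1 lower adjusted, and leaving out 1 array 4 to 7 higher and 1 to 2 lower. Replicate numbers do not pair the samples by the labels, and the deviations of same-numbered arrays correlated at -0.03. Dim genes have little signal over background, and 2 arrays per group limit every call.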
